A study of Mus musculus with 7 samples.

Results

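The long non-coding RNAs described here are 8 of the best-known transcripts of this class, Malat1, Neat1, Miat, Gas5, Snhg1, Snhg11, Dancr and Tug1. They were chosen by symbol, and all 8 were found among the 27138 features of the count table and had enough counts to be among the 16910 features tested. Polyadenylated RNA of the pancreas was sequenced in E15.5 mouse embryos. The 3 cKO embryos carried Pdx1Cre and floxed alleles (mLINC00673fl/fl) of 2610035D17Rik, which corresponds to LINC00673 in human. The 4 WT embryos carried the same floxed alleles without Cre, and each library came from 1 animal, so any effect of Cre itself cannot be told apart from that of the deletion. Pdx1 drives Cre in the pancreatic epithelium, whereas the dissected organ also holds mesenchyme, vessels, nerves and blood cells.

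Long non-coding RNAs are transcripts that are often spliced and polyadenylated like messenger RNAs but carry no long reading frame, and several of them act inside the nucleus. Malat1 is a nuclear RNA of splicing speckles, Neat1 is the scaffold of nuclear bodies called paraspeckles, and Miat, also called Gomafu, is a nuclear RNA known from neurons. Gas5, Snhg1, Snhg11 and Dancr carry small nucleolar RNAs (snoRNAs), guides for ribosomal RNA modification, in their introns. The spliced exons of Gas5 and Snhg1 are known to be degraded by nonsense-mediated decay. Tug1 is an RNA of both nucleus and cytoplasm, first described in the developing mouse retina. The mature 3′ ends of Malat1 and of the long form of Neat1 are not polyadenylated, so libraries made on poly-T beads can hold fewer of these RNAs than the tissue does.

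The promoters of Gas5, Snhg1, Snhg11, Malat1 and 2610035D17Rik are shown because they let a reader compare 3 snoRNA hosts, the most variable member among them, with a nuclear RNA and the targeted gene. They are RefSeq windows of GRCm38.p6 from 250 bases before to 50 after an annotated start, 5′ to 3′ on the gene's strand, and such windows were found for 7 of the 8 members. Capitals mark GGGCGG (GC box), the CCAAT box, the TATA box TATAAA and the cAMP response element TGACGTCA on either strand, and a 5′ TOP-like pyrimidine run near the start.
Gas5, second of 2 starts, chr1:161034916-161035215, plus strand: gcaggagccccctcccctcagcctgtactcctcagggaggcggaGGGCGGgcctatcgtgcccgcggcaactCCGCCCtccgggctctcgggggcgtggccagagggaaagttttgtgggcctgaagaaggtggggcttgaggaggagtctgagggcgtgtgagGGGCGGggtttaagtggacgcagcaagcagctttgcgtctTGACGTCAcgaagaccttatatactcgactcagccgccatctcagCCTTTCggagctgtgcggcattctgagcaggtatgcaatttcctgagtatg
Snhg1, chr19:8723237-8723536, plus strand: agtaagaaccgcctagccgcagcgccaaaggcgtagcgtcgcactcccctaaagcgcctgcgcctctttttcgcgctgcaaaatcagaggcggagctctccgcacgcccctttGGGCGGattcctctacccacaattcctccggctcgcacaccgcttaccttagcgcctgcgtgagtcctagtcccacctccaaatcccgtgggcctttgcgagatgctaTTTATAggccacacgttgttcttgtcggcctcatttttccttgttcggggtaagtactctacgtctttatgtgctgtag
Snhg11, chr2:158375463-158375762, plus strand: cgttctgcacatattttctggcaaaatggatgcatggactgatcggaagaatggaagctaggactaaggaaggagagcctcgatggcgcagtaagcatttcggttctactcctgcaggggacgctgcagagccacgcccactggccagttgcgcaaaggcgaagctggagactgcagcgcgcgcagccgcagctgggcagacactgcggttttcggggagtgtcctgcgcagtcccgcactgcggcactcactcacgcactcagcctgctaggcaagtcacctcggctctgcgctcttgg
Malat1, chr19:5802623-5802922, minus strand: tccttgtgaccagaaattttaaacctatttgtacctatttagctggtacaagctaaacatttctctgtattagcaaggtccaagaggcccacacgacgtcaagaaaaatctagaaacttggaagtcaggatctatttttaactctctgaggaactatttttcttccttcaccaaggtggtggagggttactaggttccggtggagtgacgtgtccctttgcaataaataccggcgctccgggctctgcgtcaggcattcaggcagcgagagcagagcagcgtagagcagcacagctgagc
2610035D17Rik, chr11:113201789-113202088, minus strand: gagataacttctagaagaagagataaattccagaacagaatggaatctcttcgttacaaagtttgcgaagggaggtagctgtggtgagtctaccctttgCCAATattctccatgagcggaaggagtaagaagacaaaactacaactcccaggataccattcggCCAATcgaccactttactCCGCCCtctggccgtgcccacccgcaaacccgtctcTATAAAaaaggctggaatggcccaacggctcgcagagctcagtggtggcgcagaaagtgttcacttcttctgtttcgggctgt

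The printed Gas5 window held TGACGTCA at position −46 from the annotated start, a motif present in 1.79% of the 32851 RefSeq windows, and a pyrimidine run CCTTTC at the start. Such runs, a C followed by at least 4 pyrimidines and beginning within 10 bases of the start, were present in 30.7% of all windows. The window of the first Gas5 start held GGGCGG but neither TGACGTCA nor such a run. TATAAA was found in the 2610035D17Rik window at position −33 and on the opposite strand in the Snhg1 window at position −29, against 13.6% of all windows. Of the windows printed, GGGCGG stood in those of Gas5, Snhg1 and 2610035D17Rik (35.7% of all windows) and CCAAT in that of 2610035D17Rik (37.4%). Among the members not printed, Miat, Dancr and Tug1 also had GGGCGG, Dancr had CCAAT and Miat had a pyrimidine run at the start. The Snhg11 and Malat1 windows held none of these letters, and none of the motifs overlapped another in the windows printed.

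The libraries held 14883918 to 17767373 counts. Counts of replicates within a group differed by more than sampling noise, with a chi-square per degree of freedom of 16.7 to 48.6 over the 9 pairs. WT replicate 4 carries the number 7 in the table's header where the other 6 libraries carry 6, and the labels do not say what this number stands for. Markers of acinar and endocrine cells were present in every library, with at least 10 counts in each for 14 of 14 acinar and 24 of 24 endocrine genes. Liver genes were highest in cKO replicate 1 and WT replicate 4, at 2349 and 1678 summed CPM (the count relative to the TMM-scaled library size), against 595 to 840.3 summed CPM elsewhere. This sum understates the contrast for genes such as Alb (8.59 to 689 CPM over the libraries). Ttr (238 to 358 CPM) and Ambp (288 to 424 CPM) were high in every library. All 14 liver genes were above 0 in the cKO over WT fit (median log2 fold change 0.94), with 0 called by edgeR, and its part in the results was not tested. Neuron genes were highest in cKO replicate 1 and WT replicate 1.

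The targeted gene checks the labels. 2610035D17Rik (ENSMUSG00000087259, chromosome 11, minus strand) had 2.01, 3.38 and 2.27 CPM in cKO replicates 1 to 3, against 9.08, 8.76, 7.93 and 8.83 CPM in WT replicates 1 to 4. All cKO libraries lay below all WT libraries. Its fitted log2 fold change was −1.76 (SE 0.215), with an edgeR Benjamini-Hochberg adjusted p of 0.0902, above the threshold of 0.05, and an exact permutation p of 0.0286, the smallest that 3 against 4 libraries allow. The adjusted p was 1.25e-09 with DESeq2, 0.133 with limma-voom, 0.125 with edgeR without robust estimation and 0.330 with embryo sex as a covariate, so the call depended on the test. With 1 female library, WT replicate 2, that covariate cannot adjust for sex and amounts to leaving the library out (edgeR adjusted p = 0.367 without it).

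None of the 8 long non-coding RNAs differed between cKO and WT pancreas beyond the spread between libraries. In edgeR's quasi-likelihood test 0 of 8 passed an adjusted p under 0.05, and 0 of 8 had an unadjusted p under 0.05, against 1.38% of tested features. DESeq2 and limma-voom also called 0 of 8. The background was 0.00591% of tested features called by edgeR and 0.0771% by DESeq2. The cKO and WT ranges overlapped for all 8 members, whereas 2.72% of all tested features had ranges that did not overlap. The fitted log2 fold change was above 0 for 5 members and below 0 for 3, with a median of 0.05, against −0.0129 over all tested features, of which 46.0% were above 0. The width of the 95% intervals differed between members. The interval for Tug1 ran from 0.858-fold to 1.10-fold and that for Snhg1 from 0.892-fold to 1.29-fold, so changes as large as that of the targeted gene lay outside both. Such changes also lay outside the wider intervals of Gas5 (0.759 to 1.38), Neat1 (0.671 to 1.62), Malat1 (0.619 to 1.96), Miat (0.472 to 1.58) and Dancr (0.722 to 2.08). The interval for Snhg11 ran from 0.115-fold to 5.13-fold, which takes in the 0.295-fold fitted for 2610035D17Rik.

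**Figure D1:**
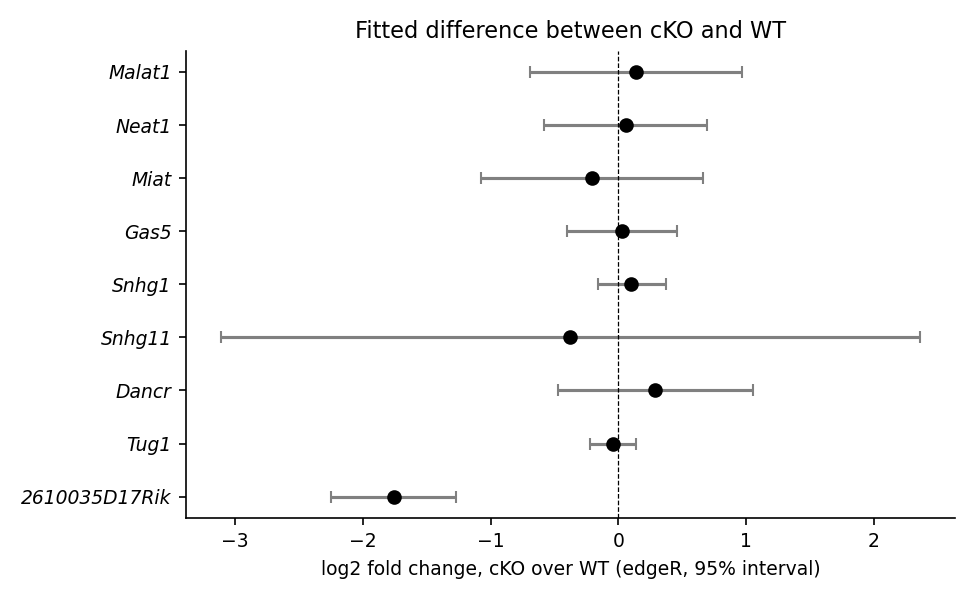
Fitted log2 fold change of cKO over WT (horizontal axis) for the 8 long non-coding RNAs and the targeted gene 2610035D17Rik, with 95% intervals from edgeR. All 8 intervals include 0, from −0.22 to 0.14 for Tug1 up to −3.11 to 2.36 for Snhg11, and that of 2610035D17Rik runs from −2.25 to −1.27.

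Among the nuclear RNAs, Malat1 (ENSMUSG00000092341, chromosome 19) had 85.1, 113 and 221 CPM in cKO replicates 1 to 3, against 103, 137, 164 and 103 CPM in WT replicates 1 to 4. The cKO group held both the lowest and the highest library, cKO replicates 1 and 3, with all WT libraries between them. The means were 139.7 ± 71.6 CPM in cKO (SD, n = 3) and 127 ± 29.7 CPM in WT (SD, n = 4), and the log2 fold change was 0.14 (SE 0.349, edgeR adjusted p = 1.00). Without cKO replicate 3 it was −0.35.

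Neat1 (ENSMUSG00000092274), the paraspeckle scaffold 22.0 kb from Malat1 on the same strand of chromosome 19 in the GRCm38 annotation, did not share its order of libraries. It had 14.9, 11.6 and 10.6 CPM in cKO replicates 1 to 3, against 17.3, 7.33, 9.79 and 13.0 CPM in WT replicates 1 to 4. The WT libraries spanned the whole range, with WT replicate 1 highest and WT replicate 2 lowest. Its log2 fold change was 0.06 (SE 0.278, edgeR adjusted p = 1.00). The ratio of Malat1 to Neat1 counts was 5.71, 9.76 and 20.8 in cKO replicates 1 to 3, against 5.92, 18.7, 16.8 and 7.93 in WT replicates 1 to 4.

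Miat (ENSMUSG00000097767, chromosome 5) had 36.7, 28.1 and 23.5 CPM in cKO replicates 1 to 3, against 57.7, 19.4, 29.2 and 29.9 CPM in WT replicates 1 to 4. WT replicate 1 stood above the other 6 libraries. The log2 fold change was −0.21 (SE 0.367, edgeR adjusted p = 1.00), and without WT replicate 1 it was 0.17.

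Among the snoRNA hosts, Gas5 (ENSMUSG00000053332, chromosome 1) contains 10 annotated snoRNA genes, Snhg1 contains 8, Snhg11 contains 2 and Dancr contains 1. Gas5 had 158, 134 and 109 CPM in cKO replicates 1 to 3, against 162, 108, 105 and 147 CPM in WT replicates 1 to 4. Both groups spread over nearly the same range, and the log2 fold change was 0.03 (SE 0.187, edgeR adjusted p = 1.00). Its sign turned to −0.10 without cKO replicate 1, and it was −0.05 and −0.06 without WT replicate 2 or 3.

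Snhg1 (ENSMUSG00000108414, chromosome 19) had 62.5, 50.0 and 49.7 CPM in cKO replicates 1 to 3, against 55.6, 45.7, 45.9 and 54.5 CPM in WT replicates 1 to 4. The highest library was cKO replicate 1 and the lowest were WT replicates 2 and 3. The means were 54.1 ± 7.32 CPM in cKO (SD, n = 3) and 50.4 ± 5.36 CPM in WT (SD, n = 4), and the log2 fold change was 0.10 (SE 0.118, edgeR adjusted p = 1.00).

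Snhg11 (ENSMUSG00000044349, chromosome 2), a host known from neurons that GENCODE M21 lists as protein coding and RefSeq as a long non-coding RNA, was the most variable member. It had 25.7, 1.60 and 5.08 CPM in cKO replicates 1 to 3, against 26.2, 2.33, 10.5 and 16.9 CPM in WT replicates 1 to 4. A high library near 26 CPM and a low one near 2 CPM occurred in each group, and the highest and lowest libraries differed 16.4-fold. The log2 fold change was −0.38 (SE 1.11, edgeR adjusted p = 1.00). It was −2.05 without cKO replicate 1, 0.12 without cKO replicate 2, −0.04 without cKO replicate 3, 0.12 without WT replicate 1 and −0.73 without WT replicate 2, none of them called.

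Dancr (ENSMUSG00000106943, chromosome 5), known in human epidermis as an RNA that holds progenitors undifferentiated, had the fewest counts. It had 17, 26 and 24 counts in cKO replicates 1 to 3, against 28, 12, 18 and 13 counts in WT replicates 1 to 4. The counts of the groups overlapped. This gave 1.29 ± 0.269 CPM in cKO (SD, n = 3) and 1.05 ± 0.338 CPM in WT (SD, n = 4), with a log2 fold change of 0.29 (SE 0.337, edgeR adjusted p = 1.00). Its coefficient of variation (CV) over the 7 libraries was 27.2%, against 22.5% from counting error alone at its mean count.

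Tug1 (ENSMUSG00000056579, chromosome 11) was the steadiest member. It had 137, 141 and 157 CPM in cKO replicates 1 to 3, against 156, 148, 153 and 140.5 CPM in WT replicates 1 to 4. The highest library exceeded the lowest 1.15-fold. The log2 fold change was −0.04 (SE 0.0800, 95% interval −0.22 to 0.14, edgeR adjusted p = 1.00).

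**Figure D2:**
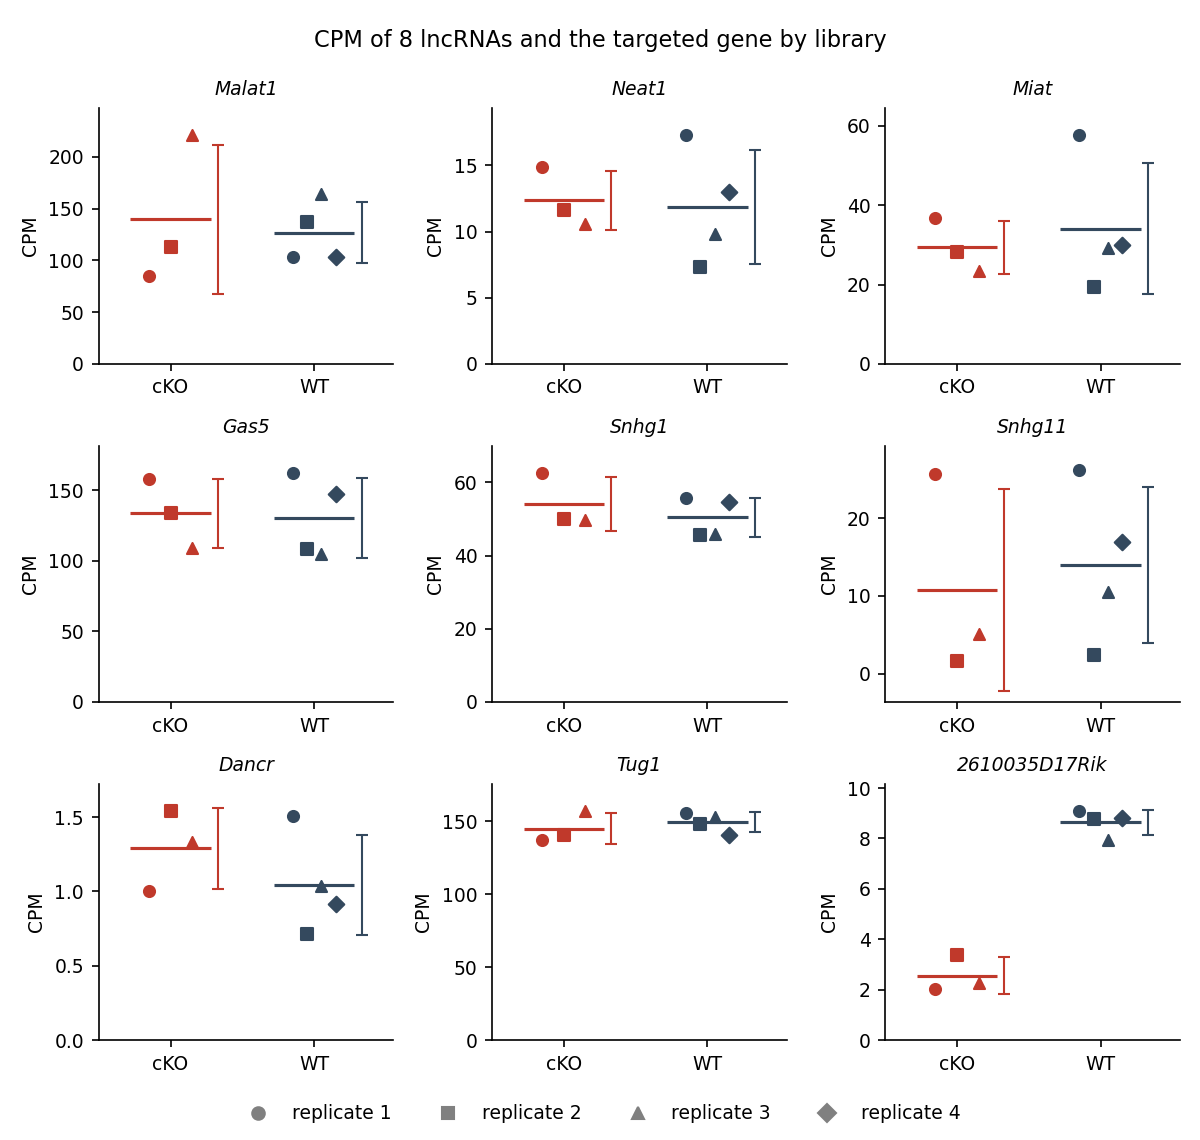
CPM (vertical axes, from 0, extended below 0 for Snhg11 to hold its error bar) of each long non-coding RNA and of 2610035D17Rik, with 1 point per library, the group mean as a line and the SD as a bar beside it, for 3 cKO and 4 WT libraries. The groups overlap in all panels but that of 2610035D17Rik, and Snhg11 runs from 1.60 to 26.2 CPM.

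Levels of different genes were compared per kilobase of annotated exon (exon union of the GRCm38 annotation). Over the 7 libraries Gas5 was highest at 35.1 CPM per kb, a level above 91.2% of the 16663 tested genes with a known length. Malat1 followed at 18.9, Snhg1 at 17.5 and Tug1 at 15.2 CPM per kb. Then came Miat at 3.45, 2610035D17Rik at 2.85, Snhg11 at 1.48, Neat1 at 0.582 and Dancr at 0.491 CPM per kb, the last above 10.9% of tested genes. The place of 2610035D17Rik holds for the mean over all libraries only. In cKO it was at 1.20 CPM per kb, below Snhg11 at 1.26, and in WT at 4.08 CPM per kb, above Miat at 3.66. The order in cKO rests on replicate 1, with Snhg11 at 3.01 and 2610035D17Rik at 0.948 CPM per kb. In cKO replicates 2 and 3 Snhg11 was the lower, at 0.188 and 0.597 against 1.59 and 1.07 CPM per kb. Of the neighbours in this order, Tug1 and Miat alone had ranges over the libraries that did not meet, from 14.1 to 16.1 and from 2.09 to 6.21 CPM per kb. With the length of the longest transcript Gas5 was at 51.6 and Tug1 at 22.0 CPM per kb, which put Tug1 above Snhg1 and Malat1 (19.1 and 18.9). Neat1 was divided by the 20771 bases of its long form, so any reads of its short form were spread over more sequence than they cover.

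Beside the targeted gene, members lay both above and below it. In cKO libraries, per exon length, Gas5 stood at 29.5 times the mean level of 2610035D17Rik, against 8.52 times in WT libraries. For Malat1 the ratio was 16.6 in cKO and 4.45 in WT, for Snhg1 15.2 and 4.16, and for Tug1 12.4 and 3.76. Miat was at 2.64 times the targeted gene in cKO and 0.898 times in WT, and Snhg11 at 1.05 and 0.402 times. The 1.05 rests on cKO replicate 1, as Snhg11 was below the targeted gene in cKO replicates 2 and 3. Neat1 was at 0.495 times the targeted gene in cKO and 0.140 times in WT, and Dancr at 0.457 and 0.109 times. Each ratio has the level of the targeted gene in the same group as its denominator.

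**Figure D3:**
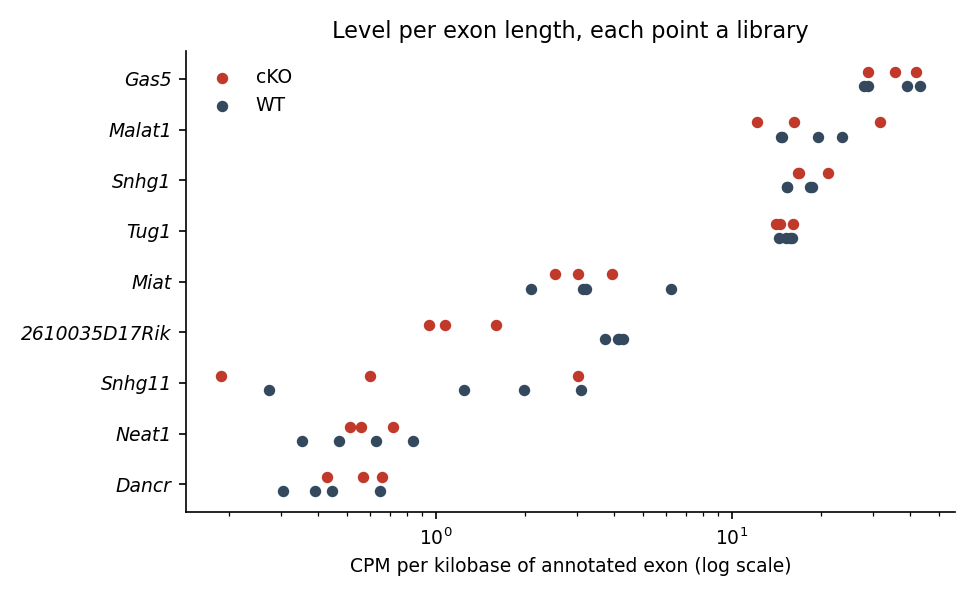
CPM per kilobase of annotated exon (horizontal axis, log scale) for the 8 long non-coding RNAs and 2610035D17Rik, ordered by mean, with 1 point per library, cKO above WT. Gas5, Malat1, Snhg1 and Tug1 lie from 12.2 to 43.2, and the other members at 6.21 or lower.

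The spread between libraries differed widely among the members. Over 7 libraries the CV of CPM was 83.2% for Snhg11, 39.0% for Miat, 35.4% for Malat1, 27.6% for Neat1, 27.2% for Dancr, 18.6% for Gas5, 11.6% for Snhg1 and 5.42% for Tug1. The biological coefficient of variation (BCV), which edgeR estimates within the groups, was 0.941 for Snhg11, larger than that of 99.0% of the 1983 features within 0.5 log2 CPM of its level. It was 0.319 for Malat1 and 0.334 for Miat, larger than 98.0% and 97.3% of features of like level. For Gas5 it was 0.185 (91.5%) and for Neat1 0.276 (89.2%), whereas Snhg1 at 0.130 (66.4%), Dancr at 0.276 (33.1%) and Tug1 at 0.108 (24.3%) lay within the bulk. The Miat CV was 21.2% without WT replicate 1.

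**Figure D4:**
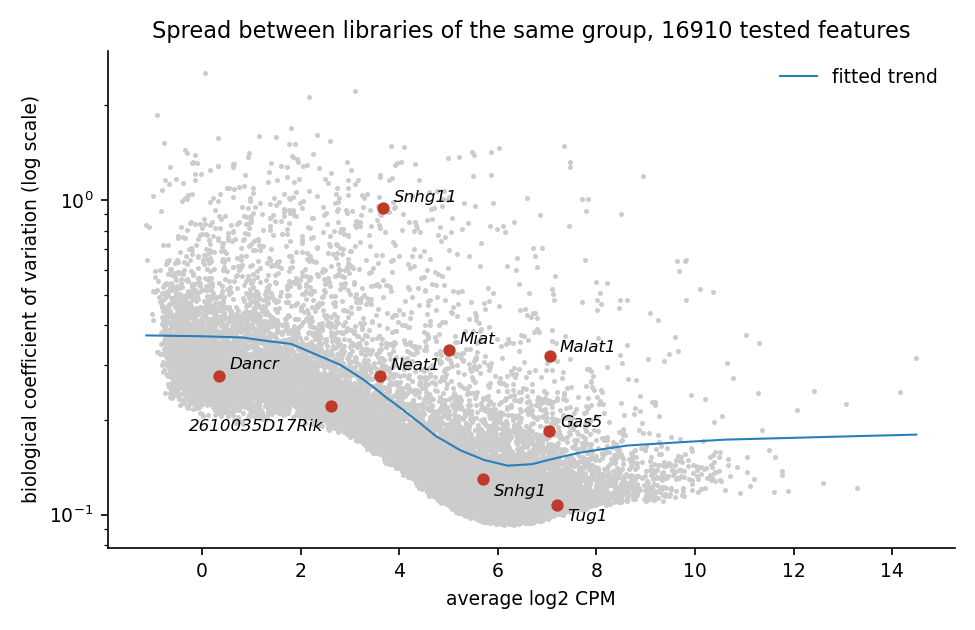
Biological coefficient of variation (vertical axis, log scale) against average log2 CPM for the 16910 tested features (grey) with edgeR's fitted trend (blue line) and the 8 long non-coding RNAs and 2610035D17Rik in red. Snhg11 (0.941), Malat1 (0.319) and Miat (0.334) lie above the trend, and Tug1 (0.108) lies below it.

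Of the pairs of members, 2 of 28 passed the adjustment by Spearman and 0 by Pearson, and the pairs of largest r are given with them. Over the 28 pairs, log2 CPM of Neat1 and Gas5 gave Pearson r = 0.90 (exact permutation p = 0.00317, adjusted p = 0.0633) and Spearman rho = 0.96 (exact p = 0.00278, adjusted p = 0.0389) over 7 libraries. Neat1 and Snhg1 gave r = 0.85 (exact permutation p = 0.0181, adjusted p = 0.0843) and rho = 0.96 (exact p = 0.00278, adjusted p = 0.0389). Gas5 and Snhg1 gave r = 0.89 (exact permutation p = 0.00913, adjusted p = 0.0633) and rho = 0.93 (exact p = 0.00675, adjusted p = 0.0630). Neat1 and Miat gave r = 0.91 (exact permutation p = 0.00615, adjusted p = 0.0633) and rho = 0.89 (exact p = 0.0123, adjusted p = 0.0689). Malat1 and Gas5 gave r = −0.87 (exact permutation p = 0.00873, adjusted p = 0.0633) and rho = −0.86 (exact p = 0.0238, adjusted p = 0.0833), neither past the adjustment. Malat1 gave a like rho with Snhg1, −0.86 (exact p = 0.0238, adjusted p = 0.0833), and with Neat1, −0.82 (exact p = 0.0341, adjusted p = 0.106). Without the 2 libraries farthest from the median the 5 r values of Neat1 with Gas5, Neat1 with Snhg1, Gas5 with Snhg1, Neat1 with Miat and Malat1 with Gas5 were 0.97, 0.98, 0.77, 0.75 and −0.90 in that order over 5 libraries, and without WT replicate 4 they were 0.90, 0.84, 0.89, 0.93 and −0.86. All pairs of members were computed after their values had been seen.

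Snhg11 and Miat were set beside neuron markers. The 20 neuron genes, all with at least 10 counts in every library, summed to 2123, 294 and 386 CPM in cKO replicates 1 to 3, against 1599, 273, 1277 and 749.6 CPM in WT replicates 1 to 4. Libraries high in neuron genes were also those high in Snhg11. Over 7 libraries Snhg11 gave r = 0.93 with the neuron sum (exact permutation p = 0.00714, adjusted over 32 relations 0.0571) and rho = 0.89 (exact p = 0.0123, adjusted p = 0.131). Miat gave r = 0.77 (exact permutation p = 0.0246, adjusted p = 0.157) and rho = 0.89 (exact p = 0.0123, adjusted p = 0.131). Neither passed the adjustment. Of the other members, Neat1 gave r = 0.69 with the neuron sum, Snhg1 0.65, Gas5 0.56 and Dancr 0.08. Tug1 gave −0.08 and Malat1 −0.47, and none of these passed the adjustment. Without the 2 libraries farthest from the median r was 0.89 for Snhg11 and 0.72 for Miat, and without WT replicate 4 it was 0.96 and 0.77. In whole tissue, fewer cells of a type and less RNA per cell cannot be told apart. The neuron list had 7 of 20 genes with a fitted value above 0 in cKO and 0 called by edgeR. Without the libraries highest in neuron genes, WT replicate 1 and cKO replicate 1, the log2 fold change was −1.56 for Snhg11 and −0.02 for Miat, neither called, and the part of neuron content in these values was not tested.

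Tug1 and Snhg1 gave the relations that passed the adjustment over these 32. Tug1 was lower in libraries with more ribosomal protein counts, with r = −0.95 (exact permutation p = 0.00437, adjusted p = 0.0466) and rho = −0.86 (exact p = 0.0238, adjusted p = 0.152), and with more liver counts, with r = −0.86 (exact permutation p = 0.00238, adjusted p = 0.0466) and rho = −0.86 (exact p = 0.0238, adjusted p = 0.152). Snhg1 was higher in libraries with more endocrine counts, with r = 0.91 (exact permutation p = 0.00437, adjusted p = 0.0466) and rho = 0.89 (exact p = 0.0123, adjusted p = 0.131). Without the 2 farthest libraries r was −0.88, −0.76 and 0.75, and without WT replicate 4 it was −0.95, −0.83 and 0.92. The liver sum includes Ttr and Ambp, which were high in every library. With library totals in place of TMM factors 0 of 32 relations passed (adjusted p = 0.0587, 0.0508 and 0.0587 for these 3). The ribosomal protein sum was 43753, 39816 and 34566 CPM in cKO replicates 1 to 3, against 33083, 36412, 32568 and 41469 CPM in WT replicates 1 to 4, while Tug1 spanned 1.15-fold. Gas5, Snhg1 and Dancr gave r = 0.50, 0.61 and −0.24 with the same sum (exact permutation p = 0.224, 0.149 and 0.599). Without the 2 farthest libraries r was 0.06, −0.10 and 0.08 in that order.

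**Figure D5:**
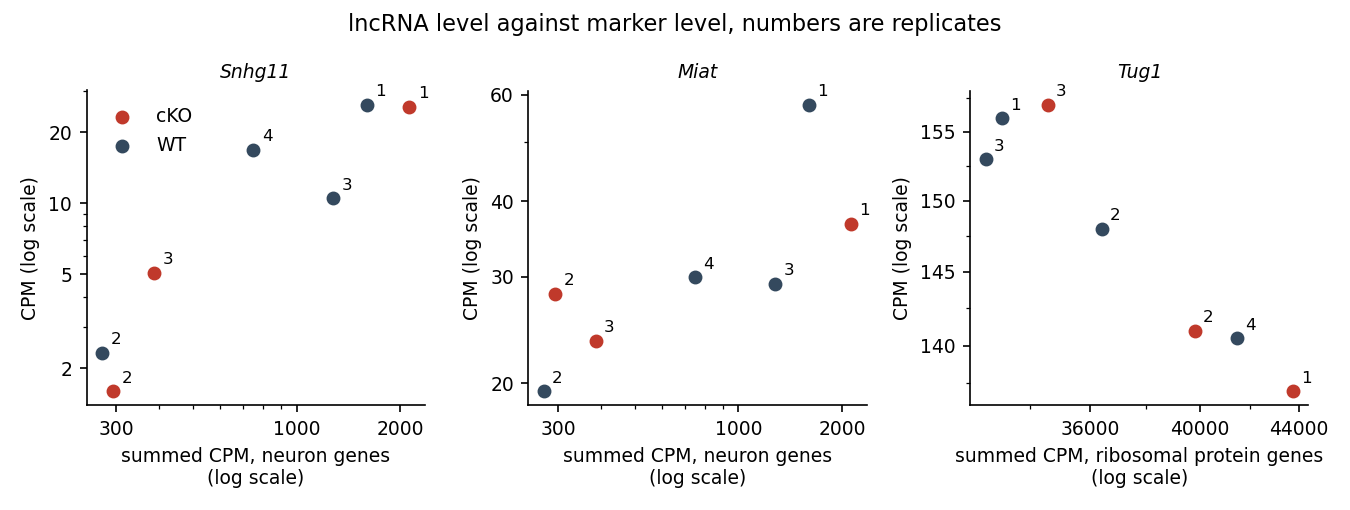
CPM of Snhg11 and Miat against the summed CPM of 20 neuron genes, and of Tug1 against the summed CPM of 37 ribosomal protein genes, all axes on log scales, with 1 point per library (red cKO, dark WT) numbered by replicate. cKO replicate 1 and WT replicate 1 are highest for neuron genes and for Snhg11, and Tug1 spans 137 to 157 CPM.

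The tested genes with a pattern most like the 3 most variable members were sought among 10658 genes with a mean of at least 10 CPM. Likeness was the Pearson r of log2 CPM over 7 libraries, as a description. For Snhg11 they were Trim46, Dkk3 and Zfr2, each at r = 0.98, and 1.54% of genes exceeded 0.9. For Miat they were Slc4a3, Rtl5 and Znrf1 at r = 0.98 (1.09% above 0.9). For Malat1 they were Nbas, Dock11 and Nrk at r = 0.98 (0.919% above 0.9). Pearson r does not measure the size of the changes, and each of these genes varied less than its member. Trim46 ran from 11.4 to 21.1 CPM, while Snhg11 spanned 16.4-fold. Slc4a3 ran from 36.6 to 58.7 CPM (Miat 2.97-fold) and Nbas from 59.1 to 70.3 CPM (Malat1 2.60-fold).

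No gene beside a member was called. Of the nearest tested neighbours, Frmd8 beside Neat1 gave a log2 fold change of −0.04 (SE 0.0862). Slc3a2, an amino acid transporter chain that starts 0.106 kb from Snhg1 on the opposite strand, had 141 ± 12.9 CPM in cKO (SD, n = 3) and 142 ± 11.2 CPM in WT (SD, n = 4). Serpinc1, the liver gene of antithrombin on the left of Gas5, had 5.59 ± 8.21 CPM in cKO (SD, n = 3) and 2.30 ± 3.75 CPM in WT (SD, n = 4). Zbtb37 overlaps Gas5 and Morc2a overlaps Tug1 on the opposite strand, and no step that keeps strand is named in the labels, so reads of the overlap cannot be told apart. Zbtb37 had 23.8 ± 12.2 CPM in cKO (SD, n = 3) and 22.6 ± 5.58 CPM in WT (SD, n = 4), and Morc2a 77.5 ± 2.99 CPM in cKO (SD, n = 3) and 81.8 ± 4.96 CPM in WT (SD, n = 4). All these neighbours had an edgeR adjusted p of 1.00.

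Lists of related genes gave 0 calls with edgeR. Of 28 other tested long non-coding RNAs, 13 were above 0 and 15 below in the fit (median log2 fold change −0.01), with 0 at an unadjusted p under 0.05 and 0 called by DESeq2. H19, the imprinted RNA that took the most counts of the long non-coding class, had 6511 ± 386 CPM in cKO (SD, n = 3) and 5929.9 ± 405 CPM in WT (SD, n = 4). Of 13 other snoRNA hosts 10 were above 0 (median 0.10), with 0 at an unadjusted p under 0.05 and 0 called by DESeq2. Snhg6, one of these hosts, had 24.6 ± 7.53 CPM in cKO (SD, n = 3) and 18.9 ± 6.02 CPM in WT (SD, n = 4). Of 37 ribosomal protein genes 36 were above 0 (median 0.13), and of 16 translation factors whose mRNAs begin with a 5′ TOP tract 14 (median 0.06), against 46.0% of all tested features. The summed levels of both lists were highest in cKO replicate 1 and were high in WT replicate 4, as were those of liver and acinar genes. Acinar genes summed to 47403, 39164 and 27596 CPM in cKO replicates 1 to 3, against 27935, 29777, 28958 and 56949 CPM in WT replicates 1 to 4, and the part of these 2 libraries in the counts was not tested. Fitted values were below 0 for 17 of 18 speckle proteins, 13 of 16 paraspeckle proteins and 12 of 15 nonsense-mediated decay factors, each list with a median of −0.05, against −0.0129 over all tested features. The speckle sum was 4120.1 to 4417 CPM in cKO and 4237 to 4985 CPM in WT, highest in WT replicate 1. The paraspeckle sum was 3615 to 3728 CPM in cKO and 3488 to 4012 CPM in WT, also highest in WT replicate 1. The decay sum was 1104 to 1263 CPM in cKO and 1173 to 1322 CPM in WT. The groups thus overlapped for each list, and the part of single libraries in these counts was not tested. At an unadjusted p under 0.05 the ribosomal, speckle, paraspeckle and decay lists held 0, 1, 0 and 1 genes in that order, and DESeq2 called 0 of each. The genes with these p values were the splicing factor Srsf1 (log2 fold change 0.41, SE 0.144), the 1 speckle gene above 0, and the decay factor Smg8 (−0.26, SE 0.111).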

How the data were processed

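Whole-organ polyadenylated RNA was sequenced in 3 cKO and 4 WT libraries. The deposited file holds unnormalized counts for each feature. HISAT2, StringTie, featureCounts and the build mm39 are named without roles or versions, per the submitters' processing notes. Every deposited column was used. Features without an Ensembl identifier (315) took 0.184% to 0.216% of the counts. Names, exon lengths and neighbours came from GENCODE M21 and promoters from RefSeq, both on GRCm38, another build than the authors', so coordinates are given for the promoter windows only. Symbols matched 26780 of 26823 identifiers.

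The main test was edgeR 4.0.16 under R 4.3.3 (filterByExpr, TMM factors 0.952 to 1.04, estimateDisp, robust glmQLFit, glmQLFTest on group), p-values adjusted by Benjamini-Hochberg across the 16910 tested features and 95% intervals from the fit. The common BCV was 0.218. DESeq2 1.42.0 and limma-voom (limma 3.58.1), other scalings and filters, embryo sex (1 female library, WT replicate 2), a replicate block and left-out libraries were alternatives. CPM were computed on TMM-scaled library sizes. A prior count of 2 was added for log2 CPM. Single values were tested by exact two-sided permutation over the 35 divisions, correlations over all orders of 7 libraries. On simulated counts of this comparison (16910 genes), 58.8% of genes changed 2-fold were called and 21.6% of those changed 1.5-fold. The changed genes were drawn at random and genes varied independently, without shifts shared between genes. These shares therefore do not hold for single members, least of all for Snhg11, Malat1 and Miat with their large BCV. Named genes are the members, the targeted gene, the nearest tested neighbours, the genes of smallest p in each list and the genes most alike, some of which are not reported here. Members and lists were chosen with earlier results of these data known. Samples with the same replicate number come from different animals, and their deviations correlated at 0.284, 0.419 and 0.0597. The p-values for cKO against WT set the group difference against the spread between libraries. Each library came from 1 animal, so differences between animals and differences in dissection or library making cannot be told apart in that spread.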

Additional observations from a re-analysis of the deposited data

How the results depend on the processing

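Under 18 alternatives, 0 of the 8 long non-coding RNAs were called (smallest adjusted p 0.966), and Dancr alone kept the sign of its log2 fold change in all of them. Leaving out 1 library at a time gave −0.35 to 0.40 for Malat1, −0.11 to 0.30 for Neat1, −0.40 to 0.17 for Miat, −0.10 to 0.16 for Gas5, −0.0093 to 0.16 for Snhg1, −2.05 to 0.12 for Snhg11, 0.14 to 0.53 for Dancr, −0.10 to 0.0048 for Tug1 and −2.02 to −1.61 for 2610035D17Rik. The sign also turned for Malat1 with the replicate block (−0.04) and for Neat1 and Gas5 without both WT replicate 4 and cKO replicate 1 (−0.05 each). It turned for Tug1 without both WT replicate 1 and cKO replicate 1 (0.02), an alternative added after seeing the data. Of the 18, embryo sex as a covariate amounts to leaving out WT replicate 2, the 1 female library. Neat1 and Gas5 were at −0.11 and −0.05 both with this covariate and without that library. 2610035D17Rik was called with no filter (−1.76, adjusted p = 0.0121), with DESeq2 (−1.76, 1.25e-09) and with the replicate block (−1.78, 0.0454).

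The count of called features, 1 with edgeR, was 0 with DESeq2 size factors, library totals, a filter at 1 CPM, estimation that is not robust or embryo sex as a covariate. It was 4 with no filter, 13 with the DESeq2 test, 13 with the replicate block, which also leaves out the unpaired WT replicate 4 (0 without that library and no block), 2 without both WT replicate 1 and cKO replicate 1, and 0 to 3 without 1 library. The block changed no call of a member, and the replicate numbers do not pair animals. Per exon length, Gas5 was at 51.6 and Tug1 at 22.0 CPM per kb with the longest transcript. The CV of Miat was 21.2% to 43.2% with 1 library left out. Relations passing the adjustment numbered 3 with TMM and 0 with library totals. The cause of these differences was not tested. At 12 to 28 counts, depth limits Dancr, and at this spread Snhg11 allows wide intervals.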
